A study of Mus musculus with 6 samples.

Results

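The genes described here were 10 transcription factors of the chondrocyte, the cell that makes cartilage: Sox9, Sox5, Sox6, Trps1, Zbtb20, Foxa2, Foxa3, Mef2c, Runx3 and Barx1. They were chosen by name as factors known in cartilage, with earlier results of these data in view, and they are 10 of the 46078 genes in the count tables. All 10 had enough reads to be among the 16813 genes tested. The libraries were bulk RNA sequencing of growth plates of the distal femur and proximal tibia of mice at E18.5, with 3 libraries per genotype. By the study's methods the controls were littermates, and the labels do not say which animals shared a litter or whether a sample was 1 animal. The 3 mutants were Col2a1-Cre; Idh1 LSL/+, in which the promoter of a cartilage collagen gene drives Cre recombinase, and Cre removes a stop cassette in front of a mutant Idh1 allele. The 3 controls were Idh1 LSL/+ and carried the same targeted allele without the Cre transgene, so that mutant Idh1 and the presence of Cre cannot be told apart. Idh1 codes for isocitrate dehydrogenase 1.

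Chondrocytes arise where mesenchymal cells switch on Sox9, an HMG-box factor that binds the enhancers of cartilage matrix genes such as Col2a1 and Acan. Sox5 and Sox6, which lack an activation domain of their own, bind beside Sox9 and strengthen its action. In the growth plate, round cells flatten into columns, divide, stop dividing and enlarge, a last stage called hypertrophy. Mef2c, the Foxa factors and the Runx factors are known for driving the entry into hypertrophy, while Trps1 and Zbtb20 are zinc finger repressors whose loss disturbs it. Barx1 is a homeobox factor of early limb mesenchyme and of joints.

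The sequences below show that related members can be told apart by the 50-base reads, since a read from a stretch that relatives share could not be placed on either gene. Each is a stretch of 50 coding bases from GENCODE transcripts on GRCm38, and capitals mark the bases that are identical in every relative shown. The first 3 come from the start of the HMG box, the DNA-binding domain of the Sox proteins, at chr11:112782899-112782948 on the forward strand for Sox9, and on the reverse strand at chr6:143841228-143841277 for Sox5 and chr7:115489717-115489766 for Sox6.
Sox9: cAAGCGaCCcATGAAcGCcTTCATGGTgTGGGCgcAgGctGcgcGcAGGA
Sox5: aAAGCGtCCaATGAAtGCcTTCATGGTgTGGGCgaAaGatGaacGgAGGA
Sox6: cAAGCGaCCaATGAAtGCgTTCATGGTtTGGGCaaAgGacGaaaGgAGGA
In these stretches 35 of 50 bases were identical in all 3 genes, and Sox5 differed from Sox9 at 10 bases and Sox6 at 12. The next pair comes from the forkhead domain, the DNA-binding domain of the Foxa proteins, on the reverse strand at chr2:148044298-148044347 for Foxa2 and chr7:19014724-19014773 for Foxa3.
Foxa2: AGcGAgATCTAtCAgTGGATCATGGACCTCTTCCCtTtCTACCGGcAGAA
Foxa3: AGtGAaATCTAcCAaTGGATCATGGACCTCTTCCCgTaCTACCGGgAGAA
Here 43 of 50 bases were identical and 7 differed. The longest coding run that 2 relatives shared without a difference was 20 bases for Foxa2 and Foxa3, 18 for Sox9 and Sox5, 17 for Sox5 and Sox6 and 12 for Sox9 and Sox6. None of these pairs shared a run of 50 bases (0 runs). Over all genes, the share of a member's 50-base stretches that also occurred in transcripts of another gene was 8.98% for Sox5, 1.13% for Runx3, 0.371% for Zbtb20 and 0 for the other 7. The reads were counted without regard to strand, and 1330 exon bases of Sox5 (9.25% of its exon length) overlap the antisense gene Sox5os1, so that the counts of Sox5 are less certain there.

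The libraries held 23445687 to 30415773 counted reads. Levels are given in CPM, the counts scaled to a common library size with the TMM factors of edgeR (0.964 to 1.02). In these libraries 3 counts corresponded to 0.0978 to 0.127 CPM, a limit that covers counting error only. Idh1 had 37.2, 39.1 and 65.3 CPM in controls 1 to 3 and 47.5, 47.7 and 56.2 CPM in mutants 1 to 3, and its fold change on the log2 scale was 0.10 (standard error, SE, 0.19, adjusted p = 0.940 by edgeR). The total count of Idh1 therefore did not separate the genotypes, and the direction turned without control 1 (-0.05) or control 2 (-0.02). Without control 3, the library with the highest level, the change of Idh1 was 0.41 (SE 0.10, adjusted p = 0.322 by edgeR). Mutant 3 stood apart from the other 5 libraries in sex-linked RNA: Xist had 26356 counts in it and 0 to 13 elsewhere, and 4 Y-linked genes together had 0 counts in it and 3871 to 5449 elsewhere. The members that turned on mutant 3 are named with their values without it. The labels name the cells growth plate chondrocytes, and the cartilage genes were abundant, with 1920 to 5240 CPM of Col2a1. The libraries also held RNA of other tissues, since 10 skeletal muscle genes summed to 15900 to 24900 CPM. The 6 bone genes summed to 33300 to 47800 CPM, nearly all of it Col1a1. Within that list Bglap had 0.423 to 1.75 CPM, Bglap2 0.593 to 2.03 CPM and Dmp1 6.75 to 198 CPM. Whether reads of Bglap and its relative Bglap2 can be told apart was not examined, since that check covered the 10 factors only.

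None of the 10 factors passed the test between mutants and controls, which was the quasi-likelihood test of edgeR at an adjusted p under 0.05, with Benjamini-Hochberg adjustment over every gene tested (0 of 10). Over all tested genes 0.19% passed, 9 higher and 23 lower in the mutants. At an unadjusted p under 0.05, 3 of the 10 were lower in the mutants (Zbtb20, Runx3 and Foxa3) and 0 were higher, where 4.93% of all tested genes were lower at that level. DESeq2 called 0 of the 10 with 3 at an unadjusted p under 0.05, and limma-voom called 0 with 2. The fitted log2 fold change was below 0 for all 10, against 50.7% of the genes tested, and its median over the 10 was -0.18, against -0.0026 over all genes. Since the choice of factors was made with results of these libraries known, this shared direction is a description, and 8 of the 10 had overlapping groups. All mutants were below all controls in 2 of the 10, against 7.62% of the genes tested. They were above all controls in 0 of the 10, against 6.83%. Leaving out a single library turned Sox5, Sox6, Mef2c or Barx1 to 0 or above. In bulk tissue a lower level cannot be told apart from fewer cells of the type that carries the gene. Without mutant 3, 0 of the 10 passed, and Zbtb20 and Trps1 were the factors at an unadjusted p under 0.05. The p-values set the difference between the genotypes against the spread of the libraries within a genotype, which may be technical in part.

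**Figure D1:**
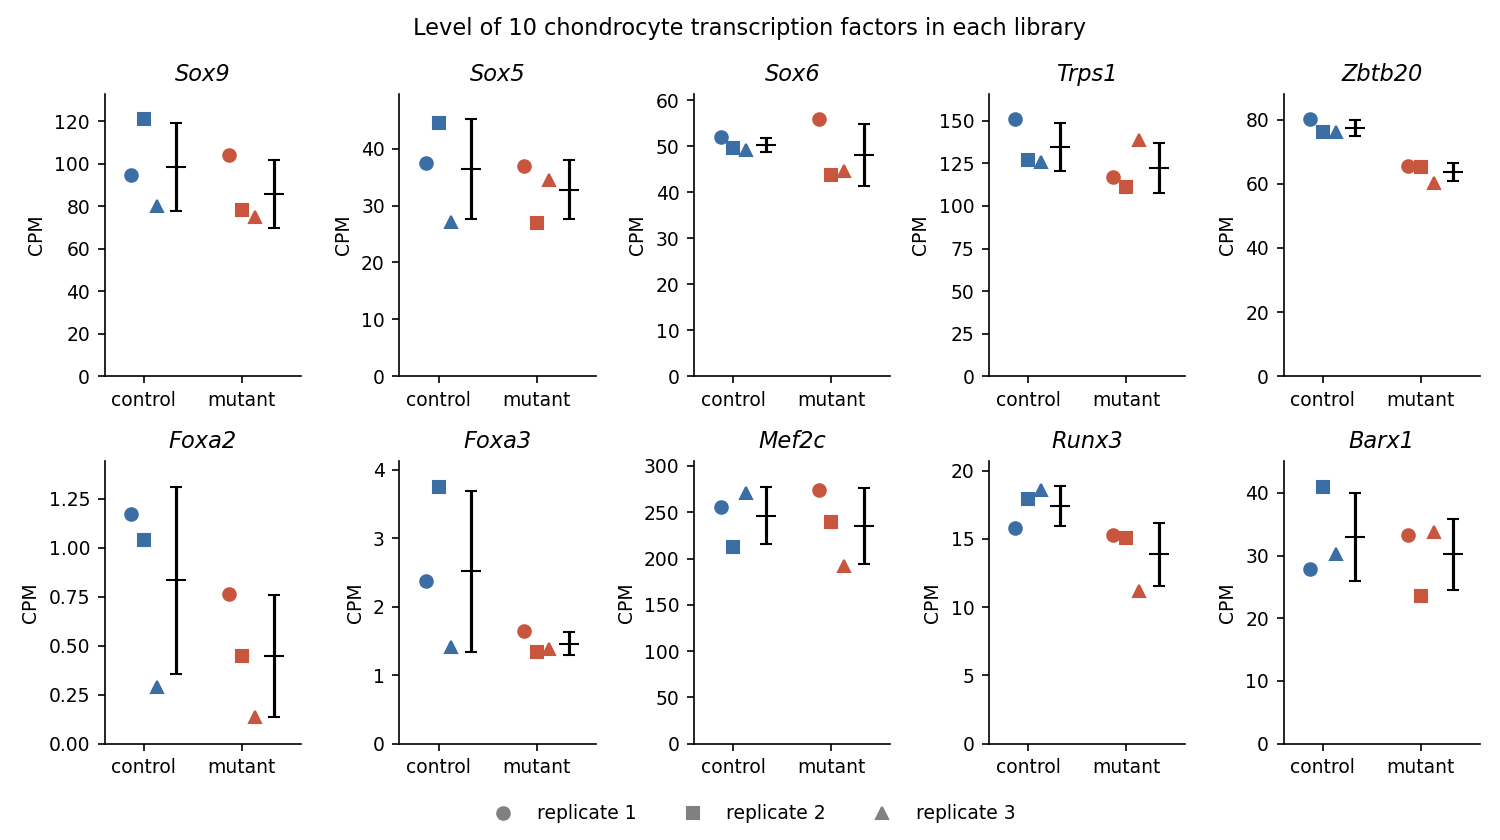
Level of each factor in CPM (vertical axis, from 0) in the 3 control (blue) and 3 mutant (red) libraries. The marker shape gives the replicate number, and the black bar gives the mean and SD of the 3 libraries. Zbtb20 and Runx3 are the panels in which every mutant point lies below every control point.

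Sox9 (chromosome 11, 112782224 to 112787760 on the forward strand) had 94.8, 121 and 80.1 CPM in controls 1 to 3 and 104, 78.2 and 75 CPM in mutants 1 to 3. Control 2 was the highest library and mutant 3 the lowest, and mutant 1 lay above controls 1 and 3, so that the groups overlapped. The means were 98.6 ± 20.6 CPM in controls and 85.8 ± 16 in mutants (SD, n = 3 each), 13% lower in the mutants. Mutants differed from controls by -0.20 on the log2 scale (SE 0.16, 95% interval -0.57 to 0.16, adjusted p = 0.808 by edgeR). Without control 2 it was -0.02 and without mutant 1 it was -0.36, so that its size rested on single libraries.

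Sox5 (chromosome 6, 143828425 to 144781977 on the reverse strand), the long form of which works as a partner of Sox9, had 37.5, 44.6 and 27.1 CPM in controls 1 to 3 and 36.9, 27 and 34.5 CPM in mutants 1 to 3. Control 3 and mutant 2 were nearly equal at the low end and control 2 was again the highest. The fitted difference was -0.15 on the log2 scale (SE 0.18, 95% interval -0.54 to 0.24, adjusted p = 0.882), and without control 2 it was 0.03. Sox6 (chromosome 7, 115471344 to 116038744 on the reverse strand), its close relative, had 52.1, 49.7 and 49.2 CPM in the controls, a range of 1.06-fold, and 55.9, 43.7 and 44.7 CPM in the mutants. Mutant 1 was above every control and mutants 2 and 3 were below every control. The log2 fold change of Sox6 was -0.07 (SE 0.10, 95% interval -0.30 to 0.16, adjusted p = 0.917), and without mutant 2 it was 0.00. A change in Sox6 of more than 0.30 on the log2 scale in either direction lies outside this interval. That limit holds for the fit of all 6 libraries only, since without mutant 1 the change was -0.19 (SE 0.09). The intervals of Sox9 and Sox5 were wider than that of Sox6.

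Barx1 (chromosome 13, 48662998 to 48666507 on the forward strand) had 27.8, 41 and 30.2 CPM in controls 1 to 3 and 33.3, 23.6 and 33.7 CPM in mutants 1 to 3. As with Sox9 and Sox5, control 2 was its highest library, and mutant 2 was its lowest. The change fitted by edgeR was -0.13 in log2 units (SE 0.17, 95% interval -0.51 to 0.25, adjusted p = 0.901), and it was 0.06 without control 2 and 0.03 without mutant 2. Genes of the joint surface, where Barx1 is known to act, summed to 315 to 502 CPM in controls and 272 to 306 in mutants over 4 genes. The log2 fold change was below 0 for 3 of them and 0.33 for Gdf5 (means of 8.83 CPM in controls and 11.1 in mutants). The part of the joint surface in the level of Barx1 was not tested.

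Trps1 (chromosome 15, 50654752 to 50890463 on the reverse strand), a GATA-type zinc finger repressor, had 151, 127 and 126 CPM in controls 1 to 3 and 117, 111 and 139 CPM in mutants 1 to 3. Mutant 3 lay above controls 2 and 3, so the groups overlapped, while mutants 1 and 2 were below all controls. Mutants differed from controls by -0.14 on the log2 scale (SE 0.11, 95% interval -0.38 to 0.10, adjusted p = 0.796). With any single library left out it stayed between -0.24 (without mutant 3) and -0.05.

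Zbtb20 (chromosome 16, 42875881 to 43642602 on the forward strand) had the lowest p of the 10 factors. This zinc finger repressor of the BTB family is known for its role in the growth plate, where chondrocytes without it do not mature in the usual way. It had 80.1, 76 and 76 CPM in controls 1 to 3 and 65.4, 65.3 and 60.3 CPM in mutants 1 to 3. All 3 mutants were below all 3 controls, and the libraries within each genotype differed by at most 1.05-fold in controls and 1.08-fold in mutants. The means were 77.4 ± 2.32 and 63.6 ± 2.92 CPM (SD, n = 3 each), 17.8% lower in the mutants. The fitted difference was -0.28 on the log2 scale (SE 0.07, 95% interval -0.45 to -0.12), with an unadjusted p of 0.00377 and an adjusted p of 0.271 by edgeR, so that it did not pass. The exact two-sided permutation test gave p = 0.1, the smallest that 3 against 3 allow. It was rank 233 by p among the 16813 genes, and 7.62% of the genes tested had all mutants below all controls. Without mutant 3 the log2 fold change was -0.24 (adjusted p = 0.605), and over every alternative it stayed between -0.30 and -0.24 with an adjusted p of 0.161 to 0.932.

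Runx3 (chromosome 4, 135120652 to 135177990 on the forward strand), a runt-domain factor that acts with Runx2 in chondrocyte hypertrophy, had 15.8, 17.9 and 18.6 CPM in controls 1 to 3 and 15.3, 15.1 and 11.2 CPM in mutants 1 to 3. The groups did not overlap, but the gap between control 1 and mutant 1 was small, and mutant 3 was well below the rest. The means were 17.4 ± 1.43 and 13.9 ± 2.27 CPM (SD, n = 3 each), 20.4% lower in the mutants. The change fitted by edgeR was -0.33 in log2 units (SE 0.14, 95% interval -0.64 to -0.03), with an unadjusted p of 0.0351 and an adjusted p of 0.529 by edgeR, and the exact permutation p was 0.1. Without mutant 3 it was -0.20, with an unadjusted p of 0.136 and an adjusted p of 0.773 by edgeR, and the unadjusted p was also above 0.05 without control 2 (0.0819) or control 3 (0.0984). Runx3 is also known in T and NK cells, and 6 genes of those cells summed to 1.37 to 2.64 CPM in controls and 1.86 to 2.58 CPM in mutants, with Cd8a at 0 counts in every library.

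Mef2c (chromosome 13, 83504034 to 83667080 on the forward strand), a MADS-box factor that switches on hypertrophic genes, had 256, 212 and 271 CPM in controls 1 to 3 and 274, 240 and 192 CPM in mutants 1 to 3. The highest and the lowest library were both mutants, and the order of the 6 did not follow the genotype. Mutants differed from controls by -0.07 on the log2 scale (SE 0.14, 95% interval -0.37 to 0.24, adjusted p = 0.948), and it turned to 0.01 without control 3 and to 0.06 without mutant 3. Mef2c is also known in skeletal muscle and endothelium. The summed level of the 10 muscle genes was 16900, 18300 and 24900 CPM in controls 1 to 3 and 23100, 22000 and 15900 CPM in mutants 1 to 3, with mutant 3 lowest as for Mef2c. The highest library differed, control 3 for the muscle genes and mutant 1 for Mef2c. The 6 endothelial genes summed to 817, 825 and 853 CPM in controls 1 to 3 and 847, 889 and 933 CPM in mutants 1 to 3. The part of muscle or endothelial RNA in the level of Mef2c was not tested.

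Foxa2 and Foxa3, forkhead factors that open chromatin at hypertrophic genes, were the scarcest of the 10. Foxa3 (chromosome 7, 19013282 to 19023538 on the reverse strand) was hit by 67, 115 and 39 reads in controls 1 to 3 and by 39, 33 and 40 in mutants 1 to 3, or 2.38, 3.75 and 1.41 CPM and 1.65, 1.34 and 1.38 CPM. Controls 1 and 2 were above every mutant, but control 3 was below mutant 1. The fitted difference was -0.79 on the log2 scale (SE 0.35, 95% interval -1.57 to -0.01), with an unadjusted p of 0.0469 and an adjusted p of 0.567 by edgeR, and without control 2 it was -0.38 (adjusted p = 0.774). Its unadjusted p stayed under 0.05 only when control 3 was the library left out. Foxa2 (chromosome 2, 148042877 to 148046969 on the reverse strand) was hit by 33, 32 and 8 reads in controls 1 to 3 and by 18, 11 and 4 in mutants 1 to 3, or 1.17, 1.04 and 0.289 CPM and 0.762, 0.446 and 0.138 CPM. Control 3 was below mutants 1 and 2, and the range within a genotype was 4.05-fold in controls and 5.54-fold in mutants. The log2 fold change of Foxa2 was -0.93 (SE 0.63, 95% interval -2.33 to 0.47, adjusted p = 0.755). Its size was the largest among the 10 factors, but the interval ran from a fall to a rise, and it was -0.47 without mutant 3 and -1.54 without mutant 1.

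**Figure D2:**
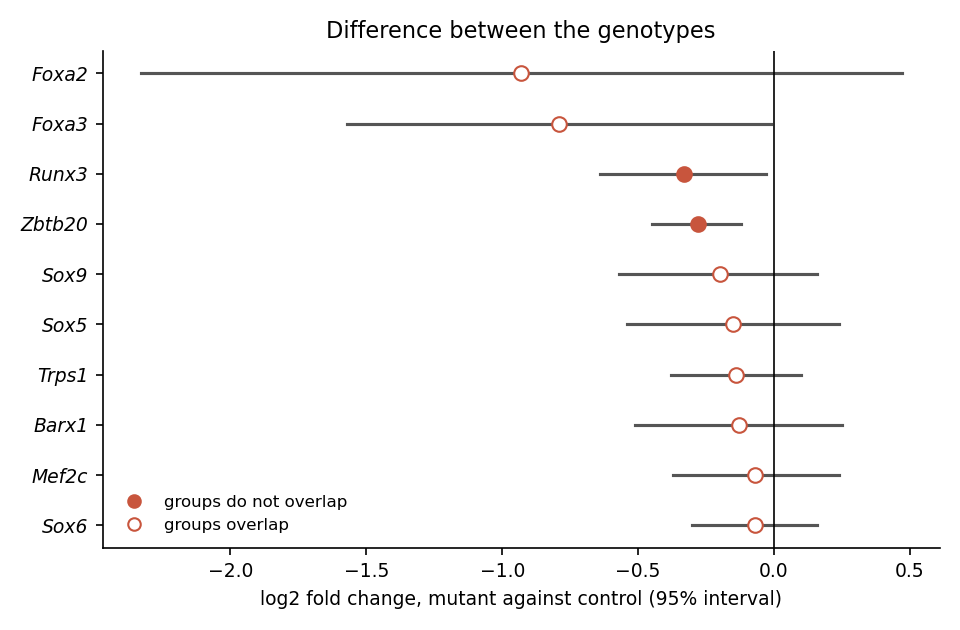
Log2 fold change of mutants against controls (horizontal axis) for each factor, with its 95% interval from edgeR. Filled points mark the 2 factors whose groups did not overlap, Zbtb20 and Runx3, and the interval is widest for Foxa2, the factor with the fewest counts.

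Compared per length, the factors covered a wide range of levels. Barx1 and Sox9 had the highest level, with means over the 6 libraries of 22.6 and 22.3 CPM per kilobase of exon. Their ranges overlapped and Barx1 was the higher of the pair in 3 of 6 libraries, so that no order could be given between them. Mef2c followed with 15.3 CPM per kilobase, Trps1 with 9.6 and Sox6 with 5.56, each above the next in every library. Runx3 (3.13), Sox5 (2.41) and Zbtb20 (2.29 CPM per kilobase) were close together, and Runx3 exceeded Sox5 in 5 of 6 libraries and Sox5 exceeded Zbtb20 in 4 of 6. Foxa3 with 0.973 and Foxa2 with 0.271 CPM per kilobase were the lowest. Sox6 thus had a higher level per length than its relative Sox5, and Foxa3 a higher level than Foxa2, in all 6 libraries. Plain CPM gave another order, with Mef2c at rank 1, Trps1 at 2, Sox9 at 3 and Zbtb20 at 4, while Barx1 fell to rank 7, because the exon lengths ran from 1399 bases for Barx1 to 30730 for Zbtb20. The exon length is that of all annotated transcripts together, and which transcripts were made was not measured.

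**Figure D3:**
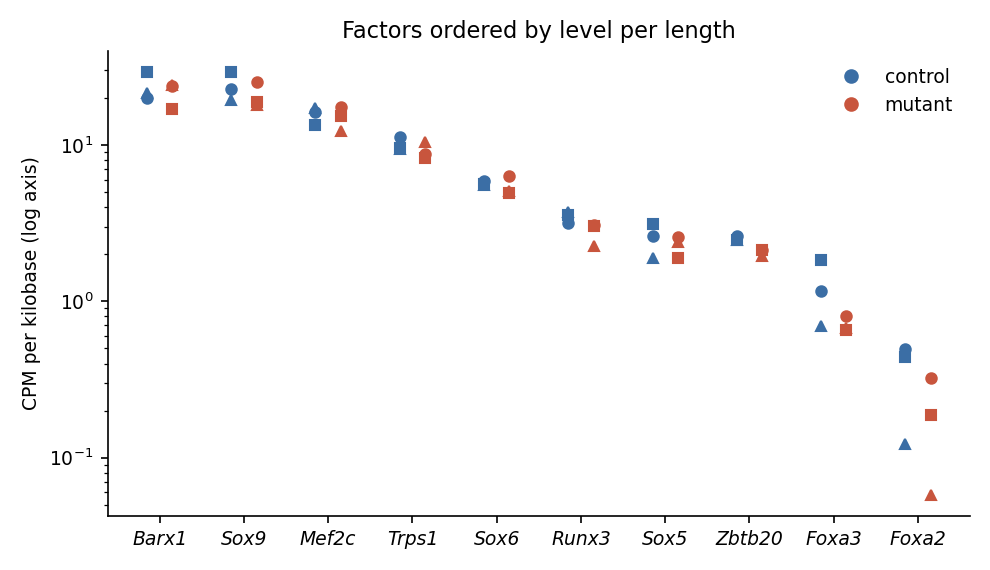
Level of each factor in CPM per kilobase of exon (vertical log axis) in each library, with factors ordered by their mean. Blue marks controls and red mutants, and circle, square and triangle are replicates 1, 2 and 3. Barx1 and Sox9 share the top, and Foxa2 is lowest and most spread.

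The way a factor varied from library to library was also read against the others. Control 2 was the highest library for Sox9, Sox5, Foxa3 and Barx1, and mutant 3 was the lowest for Sox9, Zbtb20, Foxa2, Mef2c and Runx3. Mutant 2 was the lowest for Sox5, Sox6, Trps1, Foxa3 and Barx1. The cartilage matrix genes together were lowest in control 3, with 6820 CPM against 9350 to 12900 elsewhere, and Sox5 was also low there. The tested genes whose centred log2 levels lay closest to those of Sox9 over the 6 libraries were D630003M21Rik, Proser2 and Chd3os, with root mean square differences of 0.0477, 0.0629 and 0.0637, where Sox9 itself had an SD of 0.248. D630003M21Rik had 24.4, 30.8 and 20.4 CPM in controls and 27.6, 18.8 and 19.9 in mutants. The closest gene of the cartilage matrix list was Col11a1, at rank 52 with 0.116, and the closest of the other 9 factors was Sox5, at rank 199 with 0.15. These are descriptions over 6 libraries. All genes of a library share its depth and tissue makeup, and both differed between libraries.

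**Figure D4:**
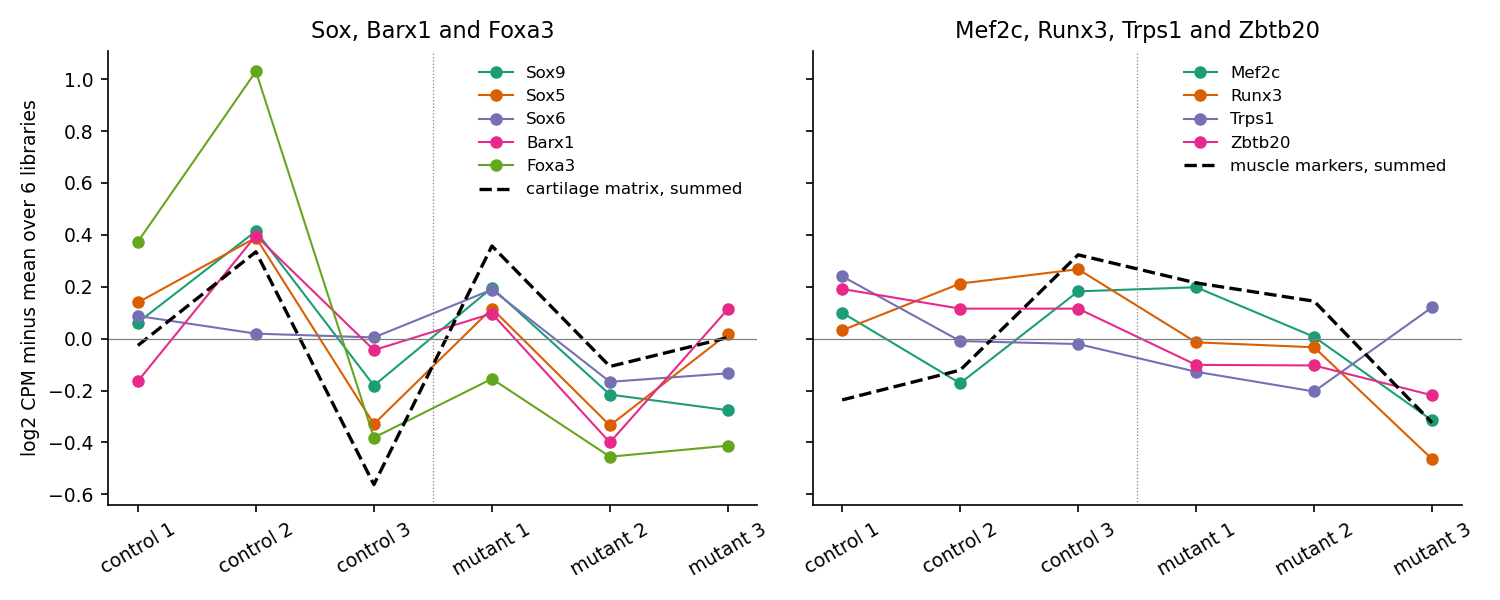
Log2 CPM of 9 factors in each library, centred on the gene's mean over the 6 libraries (vertical axis). The lines only join the points of a gene, since replicates have no order, and the dashed lines are the summed cartilage matrix genes (left) and the summed muscle genes (right), centred in the same way. Foxa2 is left out for its low counts. Sox9, Sox5, Barx1 and Foxa3 peak in control 2, and Mef2c and Runx3 are lowest in mutant 3.

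Genes of the cartilage matrix, many of them known targets of Sox9, Sox5 and Sox6, were examined in a list of 17. None passed the test (0 of 17), against 0.19% of all genes tested. At an unadjusted p under 0.05 by edgeR, 2 were lower in the mutants, against 4.93% of all genes tested. The log2 fold change was above 0 for 6 and below 0 for 11, where 50.7% of all genes tested were below 0. The list's median was -0.15, and without control 2 it was 0.16. Chad, which codes for chondroadherin, had 39.6, 68.8 and 46.7 CPM in controls and 25.2, 30.6 and 20.3 in mutants. In Chad (1 of the 17) all mutants were below all controls, as in 7.62% of all genes tested. Its fitted log2 difference was -1.03 (SE 0.21, adjusted p = 0.135 by edgeR). DESeq2 called it, with an adjusted p of 5.35e-05. Ucma, a secreted protein of resting cartilage, had a log2 fold change of -1.02 (adjusted p = 0.506), with overlapping groups, and without control 2 it was -0.55. In the other direction, Col2a1, the main collagen of cartilage, had 3240, 4280 and 1920 CPM in controls and 5240, 3660 and 3960 in mutants (log2 fold change 0.45, adjusted p = 0.699), and Acan, the main proteoglycan, had a log2 fold change of 0.20 (adjusted p = 0.646). Col2a1 had 0.19 without control 3. Col2a1 and Acan were named for the lowest p above 0, and other collagen and matrix genes of the list had values below 0, among them Col9a1 (-0.43), Col9a2 (-0.19), Col9a3 (-0.16), Hapln1 (-0.18), Comp (-0.15) and Matn3 (-0.59).

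In the list of 11 genes of prehypertrophic and hypertrophic chondrocytes, where Mef2c, Foxa and Runx factors act, 0 passed the test, against 0.19% of all genes tested. The log2 fold change was above 0 for 8 and below 0 for 3, where 50.7% of all genes tested were below 0. The median was 0.17, and without control 3 it was -0.07. Ibsp, a bone matrix sialoprotein, had 973, 332 and 120 CPM in controls and 1140, 1470 and 950 in mutants. Control 1 lay among the mutants, and the fitted log2 difference was 1.32 (SE 0.57, adjusted p = 0.557). It was 2.40 without control 1 (adjusted p = 0.0927) and 0.87 without control 3 (adjusted p = 0.614). Alpl, the alkaline phosphatase of mineralizing cells, had 0.26 (adjusted p = 0.653). Ihh, the hedgehog signal that prehypertrophic cells send, had -0.26 (adjusted p = 0.891) and Pth1r, the receptor of the parathyroid hormone-related protein, had -0.14 (adjusted p = 0.821). The summed level of the list was 628 to 2010 CPM in controls and 1730 to 2610 in mutants, and it overlapped between the genotypes.

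Of 27 partner and related factors, 24 could be tested and 0 passed. Foxa1, the third Foxa gene, had 0 counts in every library, which allows a level of up to 0.0978 to 0.127 CPM. At an unadjusted p under 0.05 by edgeR, Sox12, Cbfb and Runx2 were lower and Nkx3-2 higher in the mutants. The 3 lower genes of the 24 stand against 4.93% of all genes tested, and the list's median was -0.08. With a library left out the median lay between -0.12 (without mutant 1) and -0.03 (without control 3, mutant 2 or mutant 3). The unadjusted p by edgeR rose above 0.05 for Sox12 without control 3 (0.0717) or mutant 3 (0.0598) and for Nkx3-2 without mutant 3 (0.0505). For Cbfb it stayed at 0.0247 or below with any single library left out. Runx2, at an unadjusted p of 0.0455 by edgeR, was not examined with a library left out. Cbfb, the subunit that binds every Runx protein and stabilizes it on DNA, had 106, 110 and 96.5 CPM in controls and 84.7, 87.5 and 87.1 in mutants, and a fitted log2 difference of -0.27 (SE 0.08, adjusted p = 0.331). Runx2, the relative of Runx3 that is needed for bone, had 45.5, 41 and 43.8 CPM in controls and 37.2, 39.9 and 24.4 in mutants, with -0.36 (SE 0.16, adjusted p = 0.563). In Sox12, Runx2 and Cbfb (3 of the 24 tested) every mutant was below every control, as in 7.62% of all genes tested. In Nkx3-2 (1 of 24) every mutant was above every control, as in 6.83% of all genes tested. Mutant 3 was the lowest library for Runx2. Runx1, the remaining Runx gene, had 32.8, 29 and 35.5 CPM in controls and 31.3, 33.1 and 28.5 in mutants, so that its groups overlapped (-0.07, adjusted p = 0.914). Sox12, of the SoxC group, had -0.32 (adjusted p = 0.454). Nkx3-2, a homeobox factor that holds back hypertrophy, had 2.16, 3.06 and 2.2 CPM in controls and 3.56, 3.82 and 4.82 in mutants, a fitted log2 difference of 0.71 (SE 0.22, adjusted p = 0.394). Barx2, the relative of Barx1, had 0.66 (adjusted p = 0.60).

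**Figure D5:**
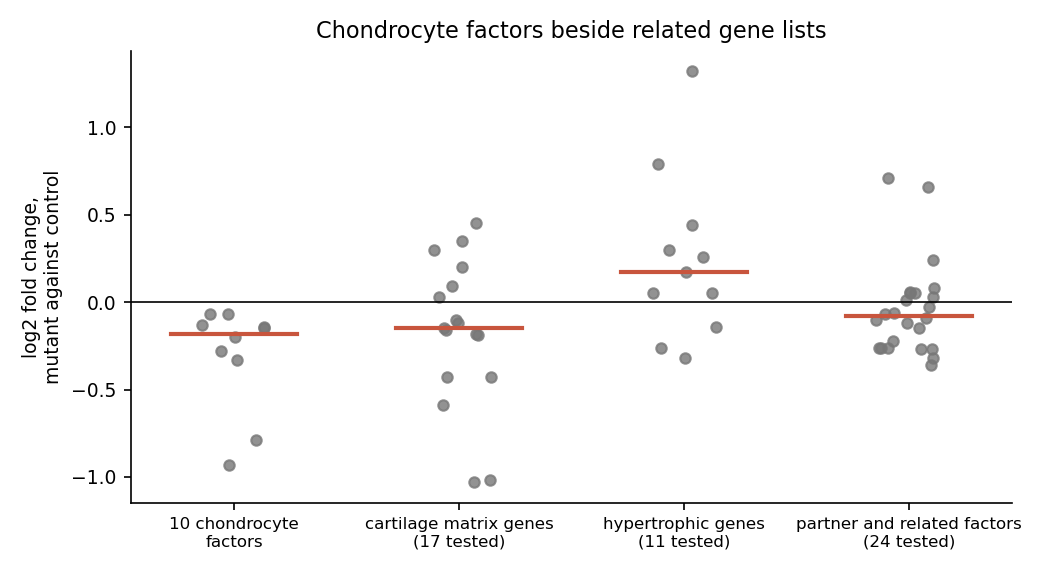
Log2 fold change of mutants against controls (vertical axis) for each tested gene of the 10 factors and of 3 related lists, with a red line at the list's median (-0.18, -0.15, 0.17 and -0.08 from left to right). The 10 factors all lie below 0 and the related lists lie on either side of it.

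Markers of other tissues were read beside these values, and of these lists Tnmd and Krt5 were the genes that passed the test. The 3 tendon genes were below all controls in every mutant, where 7.62% of all genes tested were. Their summed levels were 539 to 656 CPM in controls and 337 to 399 in mutants. Tnmd, the tendon gene tenomodulin, had a log2 fold change of -0.81 (adjusted p = 0.0374 by edgeR). The 5 erythroid genes were also below all controls in every mutant, against the same 7.62%. They summed to 533 to 1530 CPM in controls and 278 to 413 in mutants, and 0 of 5 passed. Of 6 endothelial genes, 3 were above all controls in every mutant, where 6.83% of all genes tested were, and 0 passed. The endothelial sums overlapped, with 817 to 853 CPM in controls and 847 to 933 in mutants. The macrophage genes summed to 196 to 212 CPM in controls and 217 to 291 in mutants, and the 4 Schwann cell genes to 12.4 to 17.8 and 13.8 to 17.9 CPM. The 6 bone genes summed to 33300 to 47800 CPM in controls and 38000 to 39400 in mutants, and nearly all of that was Col1a1, with 33200 to 47700 CPM (log2 fold change 0.01). The log2 fold change was above 0 for 6 of 6 bone genes, where 50.7% of all genes tested were below 0. Its median was 0.47, and 0 passed. Dmp1, a gene of osteocytes, had 82.8, 21.4 and 6.75 CPM in controls and 84.4, 198 and 90.6 in mutants. In Dmp1 (1 of the 6 bone genes) every mutant was above every control, as in 6.83% of all genes tested. Control 1 and mutant 1 of Dmp1 were close, and its log2 fold change was 1.75 (unadjusted p 0.031 and adjusted p 0.522 by edgeR). The 4 epidermal genes summed to 7.49 to 15.6 CPM in controls and 5.88 to 6.37 in mutants, with Dsg3 at 0 counts in every library. Within that list Krt5, a keratin of basal epidermis, had 2.95, 7.89 and 5.52 CPM in controls and 0.339, 0 and 0.378 in mutants (log2 fold change -4.46, adjusted p = 0.0355 by edgeR), while Krt10 had means of 6.07 and 5.91 CPM. The part of these tissues in the lower levels of Zbtb20, Runx3 and Foxa3 was not tested.

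The promoters of the factors whose groups did not overlap are shown because a Runx motif occurs in a window of each, a choice made after the matches were seen. They are the 250 bases before a RefSeq transcript start on GRCm38.p6, and capitals mark TGTGGT, the core that Runx proteins bind, or its reverse complement. The first is at chr16:43247034-43247283 and the second, at the distal start of Runx3, is at chr4:135120395-135120644, both on the forward strand.
Zbtb20: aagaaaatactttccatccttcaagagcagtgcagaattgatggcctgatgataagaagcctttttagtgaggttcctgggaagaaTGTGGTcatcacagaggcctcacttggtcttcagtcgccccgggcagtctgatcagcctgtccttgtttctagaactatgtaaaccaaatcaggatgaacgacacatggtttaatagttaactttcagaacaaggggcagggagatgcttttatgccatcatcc
Runx3: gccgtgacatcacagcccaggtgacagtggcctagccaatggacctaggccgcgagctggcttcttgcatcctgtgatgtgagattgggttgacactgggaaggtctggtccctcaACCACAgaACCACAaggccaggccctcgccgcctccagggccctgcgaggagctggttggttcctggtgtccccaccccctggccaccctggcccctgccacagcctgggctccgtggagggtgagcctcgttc
RefSeq promoter windows were listed for 8 of the 10 factors, 18 windows in all. On both strands TGTGGT occurred in 4 of the 18 (in Sox6, Zbtb20 and Runx3) and in 14% of 32851 windows of all genes. The Sox core ACAAT occurred in 5 of 18 (in Sox5, Sox6 and Mef2c) against 27.7%, AGATAA, a motif of GATA-type factors, in 2 of 18 against 9.99%, and the forkhead motif TGTTTA in 0 of 18 against 12%. A match in these windows is a string of letters and no measured binding site.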

How the data were processed

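The authors captured messenger RNA on oligo-dT beads, sequenced 50-base single reads, trimmed them with Trim Galore 0.6.4, mapped them to GRCm38 with STAR 2.6.1d and counted them on exons with featureCounts 1.6.4, ignoring strand. They deposited raw counts for each gene (the authors did not normalize these values), and 0 columns were left unused. Genotypes come from the labels, which give E18.5 as the age and 2 months in their animal care text. These were tested with edgeR 4.0.16 under R 4.3.3 (filterByExpr with minimum count 10 and minimum total 15, TMM, glmQLFit and glmQLFTest on genotype alone), over 16813 genes, with Benjamini-Hochberg adjustment and a threshold of 0.05. The common dispersion was 0.0173 (biological coefficient of variation 0.131). The study's methods use litter as a covariate, which the labels do not give. Alternatives were DESeq2 1.42.0, no low-count filter, upper-quartile factors, limma-voom (limma 3.58.1), at least 10 counts in every library, the replicate number as a block, and each library left out in turn. The members and lists were chosen with earlier results of these data known. The genes named are the 10 factors, Idh1, the 2 genes of each related list with the lowest p in each direction, and the 3 closest to Sox9. Runx1, Runx2, the single marker genes, Foxa1, 7 more cartilage matrix genes, Xist and the Y-linked genes were added for what they show of a list or library. On simulated counts of 16542 genes for this comparison, edgeR recovered 177 of 200 genes changed by 1.5 on the log2 scale, with 18 false calls. The fitted changes of the 10 factors (-0.93 to -0.07) were smaller than that, and changes of their size were not simulated. No 2 replicates were alike within sampling noise (chi-square over its degrees of freedom 10.6 to 40.8).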

Additional observations from a re-analysis of the deposited data

How the results depend on the processing

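None of the 10 factors passed the threshold under any alternative run (0 of 10 each), and their median log2 fold change stayed between -0.29 and -0.10. Under the alternatives 123 values of the factors had the direction and the side of the threshold of the reported value and 6 changed direction, all with a library left out. Over the leave-one-out fits Sox5 ranged from -0.32 to 0.03 (above 0 without control 2), Sox6 from -0.19 to 0.00 (without mutant 2), Mef2c from -0.19 to 0.06 (0.01 without control 3), Barx1 from -0.24 to 0.06 (0.03 without mutant 2) and Idh1 from -0.05 to 0.41 (-0.02 without control 2). An unadjusted p under 0.05 held in all 6 leave-one-out fits for Zbtb20, was lost for Runx3 without control 2, control 3 or mutant 3, and held for Foxa3 only without control 3. Foxa2 could not be tested with at least 10 counts in every library.

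The number of genes called among all tested was 32, and it was 193 with DESeq2, 19 with limma-voom, 259 with no low-count filter and 3 to 17 with a library left out. The cause was not tested. Of the cartilage matrix genes DESeq2 called 1 (Chad, -1.03) and the fit with no filter 2 (Chad, -1.03, and Ucma, -1.02), and of the hypertrophic genes the fit with no filter called 1 (Ibsp, 1.31). Among the other named genes and Idh1, 162 values changed neither direction nor call.

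Same-numbered libraries did not deviate together (correlations -0.13, 0.01 and -0.10), so the number was not taken as a pairing. With the replicate number as a block edgeR called 3 genes and DESeq2 96, of which 1 was a cartilage matrix gene (Chad, -1.01), and 0 of the 10 factors. The blocked log2 fold changes were -0.28 for Zbtb20 (adjusted p = 0.589 by edgeR) and -0.34 for Runx3 (adjusted p = 0.756). At an unadjusted p under 0.05 the edgeR block left 2 factors, Zbtb20 (0.0114) and Foxa2 (0.0452), while Runx3 (0.0582) and Foxa3 (0.076) were above it, and the DESeq2 block left 1, Zbtb20 (0.0268).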
